A study of Danio rerio with 12 samples.

Results

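The 9 genes described here encode neuropeptide precursors and were measured in brains of adult zebrafish (Danio rerio): the proenkephalin genes penka and penkb, the prodynorphin gene pdyn, the tachykinin gene tac1, the cholecystokinin gene ccka, the genes adcyap1a and adcyap1b for pituitary adenylate cyclase-activating polypeptide (PACAP), the vasoactive intestinal peptide gene vip, and the gastrin-releasing peptide gene grp. They were chosen by symbol from a list of 10 names. No row of the tables carries the symbol cckb, so 9 of 32674 genes are described, and 8 of these were among the 16364 genes abundant enough to test. EK-strain eggs were kept for 24 h in ethanol vehicle with 0 or 0.03 µM methylmercury (MeHg), an organic mercury compound, and gave rise to a control lineage and a MeHg lineage. Only these F1 eggs met the compound. Brains came from F3 fish of both lineages, which were not exposed. The labels list 6 biological replicates per lineage and do not say whether a replicate is 1 brain or a pool, nor give sex, age in days or hour of collection. Named columns covered control replicates 2, 4, 5, 6 and 8, which makes 5 libraries, and MeHg replicates 1, 2, 4, 5, 7 and 8, which makes 6.

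Neuropeptides are cut from larger precursor proteins by convertases in secretory granules and act on G protein-coupled receptors. Enkephalins act mainly on delta and mu opioid receptors and dynorphins on the kappa receptor, all of which inhibit neurons. Substance P, made from tac1, cholecystokinin, PACAP and VIP are mostly excitatory or modulatory. PACAP and VIP raise cyclic AMP through related receptors. In vertebrate brains most of these messages are made by restricted groups of neurons, many in the hypothalamus, the telencephalon or the brainstem, so whole-brain RNA averages over them. In such bulk RNA, fewer cells of a type and less message per cell cannot be told apart.

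Both deposited measures are used. Scaled counts, fragment counts that the authors' processing put on a shared scale with 1 factor per library, were used for tests. FPKM values, which are also corrected for transcript length, were used to compare levels between genes. Reading the smallest common step of a library as 1 fragment, the libraries held 2062500 to 6101008 fragments in the control lineage and 3248659 to 7504246 in the MeHg lineage. Summed scaled counts of 11 neuronal markers ran from 28399 to 41680, of which snap25a alone held 13824 to 21708. Within that list elavl3 stood at 495 in control replicate 5 against 1214 to 1908 elsewhere, and elavl4 at 416 against 829.7 to 1273. Several libraries stood apart in markers of tissues next to the brain. Summed pituitary hormone genes reached 27359 in MeHg replicate 4 against 44.8 to 412 elsewhere. Eye and pineal genes reached 40200.0 in MeHg replicate 8 against 252 to 2186 elsewhere. Muscle markers reached 29124 in MeHg replicate 4 against 81.8 to 5397 elsewhere. Skin markers stood at 51557 in control replicate 4, 43198 in MeHg replicate 5 and 19121 in MeHg replicate 4, and at 141 to 4058 in the remaining libraries. Control replicate 5 differed from the others in its dependence on transcript length.

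By FPKM the order of levels was adcyap1b, tac1, ccka, penka, penkb, vip, pdyn, adcyap1a and grp. The PACAP gene adcyap1b stood far above the rest, at 429 ± 89.8 FPKM (SD over 11 libraries), and made up 55.7% of the summed FPKM of the 9 genes. It was higher than tac1, at 94.8 ± 35.6, in 11 of 11 libraries. The next places were less distinct: ccka averaged 61.5 ± 29.0 and penka 59.7 ± 17.98, and ccka was the higher in only 6 of 11 libraries. Likewise penkb, at 42.4 ± 7.95, exceeded vip, at 39.4 ± 18.1, in 7 of 11. Below them came pdyn at 28.9 ± 15.5 and adcyap1a at 12.9 ± 4.99 FPKM, in that order in 10 of 11 libraries. The lowest, grp, had 1.16 ± 0.76 FPKM. The duplicated genes differed in how unequal they were. In FPKM adcyap1b exceeded adcyap1a 20.8 to 67.7 times in the control lineage and 14.4 to 74.4 times in the MeHg lineage. The ratio of penka to penkb was 0.782 to 1.93 in the control lineage and 0.999 to 2.17 in the MeHg lineage.

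No difference between the lineages beyond the spread of the libraries was shown for the 8 tested peptide genes. Of the 8, 0 passed a limma adjusted p of 0.05 over all tested genes, a threshold passed by 0.269% of all tested genes. At an unadjusted p under 0.05 there was 1 of 8, pdyn, where all tested genes gave 6.61%. That count was 0 without control replicate 5, without control replicate 8 or with no scaling, and 2 without control replicate 2 (pdyn and penkb) or without control replicate 4 (pdyn and ccka). Log2 fold changes were negative for 6 of the 8 and positive for penka and vip, while 45.7% of all tested genes had negative values. The median of the 8 was -0.15, beside 0.03 for all tested genes. Without control replicate 4 all 8 were negative, with a median of -0.14 beside 0.0195 for all tested genes. Without control replicate 5 and MeHg replicates 4 and 8, 4 of the 8 were negative. The median of the 8 was then 0.0047, beside 0.0037 for all tested genes. Without control replicate 4 and MeHg replicates 4 and 5, 7 of the 8 were negative. In that fit the median of the 8 was -0.082, beside 0.029 for all tested genes. Neither removal of 3 libraries was planned. The share of all tested genes with negative values was computed for the main fit only. With the size factors undone, the median of all genes moved to 0.30 and only 2 of the 8 were negative, although 6 still lay below that median. The SD of log2 values within lineages had a median of 0.54 over the 8 genes and 0.39 over all tested genes. It was above the latter in 6 of the 8, and below it for penkb (0.28) and adcyap1b (0.32). Labels call the samples biological replicates without saying from which parents or tanks, and the p-values measure only the spread between these samples.

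**Figure D1:**
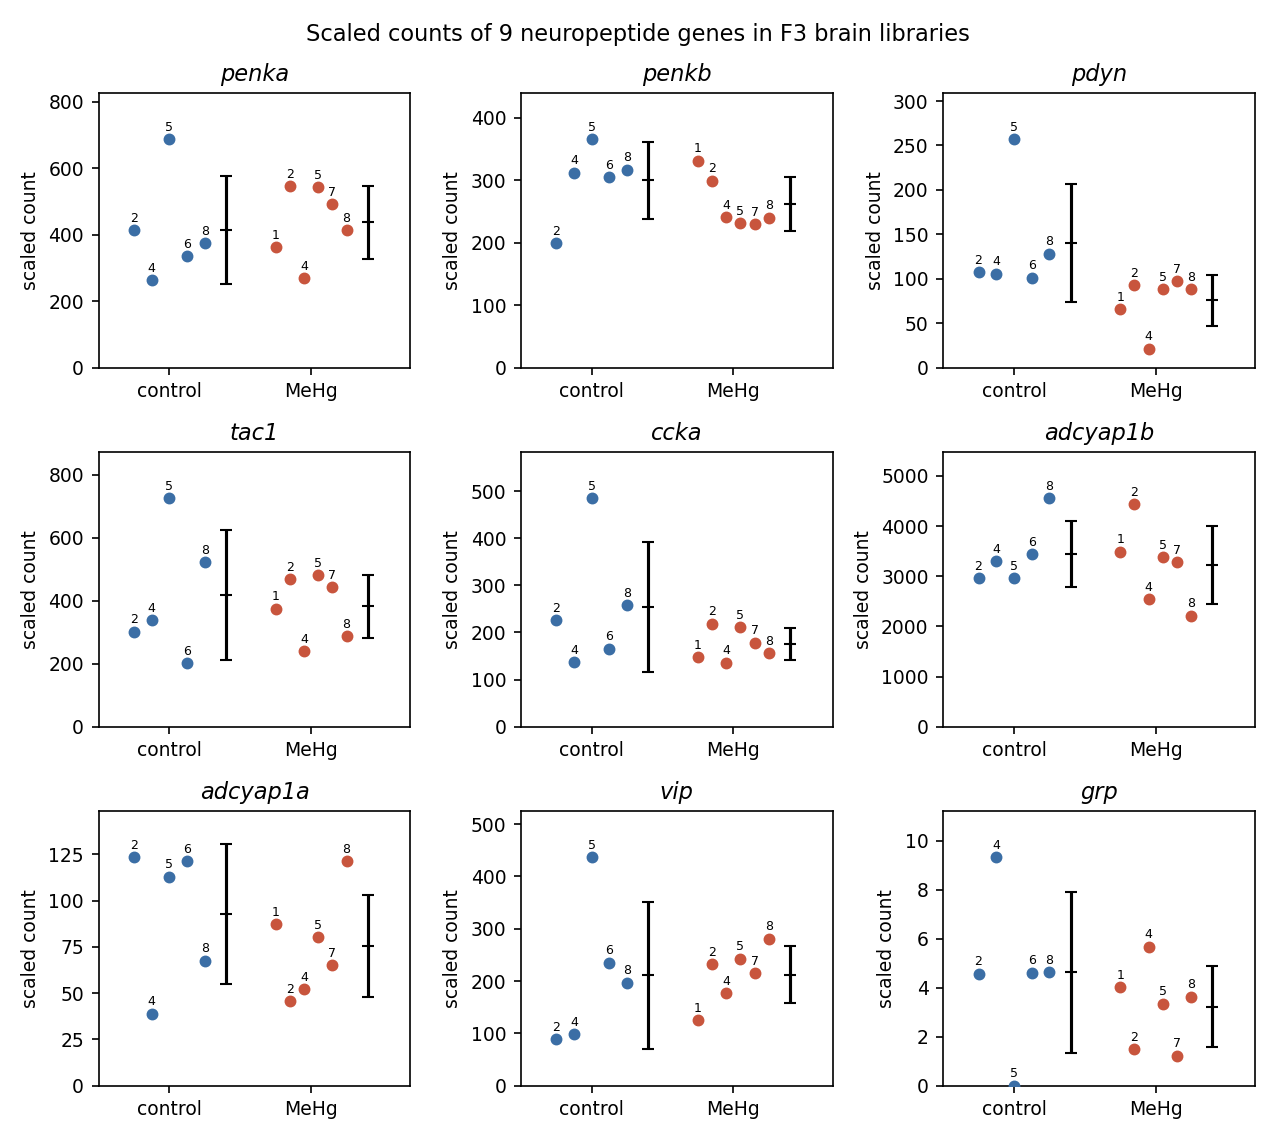
Scaled count (y axis, from 0) of the 9 peptide genes in each library, with control libraries in blue, MeHg libraries in red, replicate numbers beside the points, and mean and SD as black bars. Control replicate 5 is the highest point for penka, penkb, pdyn, tac1, ccka and vip, and in pdyn all 6 MeHg libraries, from 21.5 to 97.1, lie below the lowest control library at 101.

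Among the opioid precursors, pdyn showed the widest gap between the lineages. Dynorphins cut from its product act on the kappa opioid receptor. Its scaled count (ENSDARG00000087798) was 107, 106, 257, 101 and 128 in control replicates 2, 4, 5, 6 and 8. In MeHg replicates 1, 2, 4, 5, 7 and 8 it was 65.7, 93.0, 21.5, 88.4, 97.1 and 88.4. Every MeHg library was therefore lower than every control library, a separation found in 1.37% of all tested genes and, with the MeHg lineage lower, in 0.739%. Means were 140 ± 66.3 (SD, n = 5) and 75.7 ± 28.7 (SD, n = 6), and the log2 fold change was -0.93 ± 0.38 (SE, 95% interval -1.75 to -0.10). The limma adjusted p was 0.696 (unadjusted 0.0314), so the difference did not pass over all genes. The margin between the groups was small: 97.1 in MeHg replicate 7 and 101 in control replicate 6 rest on 79 and 132 fragments, with exact Poisson 95% intervals of 76.8 to 121 and 84.8 to 120.2 that cover counting error only.

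The size of this difference depended on 2 libraries. Control replicate 5 was the highest and MeHg replicate 4 the lowest, and the latter held only 19 fragments (21.5, interval 13.0 to 33.6). Without MeHg replicate 4 the log2 fold change of pdyn was -0.60 ± 0.25 (SE, limma adjusted p = 0.803). It was -0.68 ± 0.36 without control replicate 5 (limma adjusted p = 0.580). Leaving out control replicate 5 and MeHg replicates 4 and 8 together gave -0.37 ± 0.17 (limma adjusted p = 0.748). With control replicate 4 and MeHg replicates 4 and 5 left out instead, it was -0.69 ± 0.30 (limma adjusted p = 0.89). Control replicate 5 and MeHg replicate 4 also marked the ends of a list of 8 hypothalamic and preoptic transcription factor genes. The 5 tested members of this list were otpa, otpb, nkx2.1, nkx2.4a and fezf1. Its summed scaled count was 627 in control replicate 5 and 211 in MeHg replicate 4, and 329 to 491 in the other 9 libraries. In control libraries the sums ran from 334 to 627 and in MeHg libraries from 211 to 491, so the lineages overlapped in the markers, and 0 of the 5 tested members passed. The high sum of control replicate 5 came from otpa (305) and otpb (178), while nkx2.1 (43.9) and fezf1 (29.3) were lower there than in control replicate 2 (54.9 and 64.0). In MeHg replicate 4 otpa (65.7), otpb (34.0) and nkx2.4a (13.6) were at their lowest. There nkx2.1 (32.9) was not the lowest, as MeHg replicates 5 and 8 held 30.1 and 32.7. Likewise fezf1 (48.7) was lower in control replicates 5 and 6 and in MeHg replicates 5 and 8. MeHg replicate 4, with the lowest pdyn value, also had high pituitary (27359), muscle (29124) and skin (19121) sums. Skin sums were higher in control replicate 4 (51557) and MeHg replicate 5 (43198), where pdyn was 106 and 88.4. The part of these marker lists in the pdyn values was not tested.

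**Figure D2:**
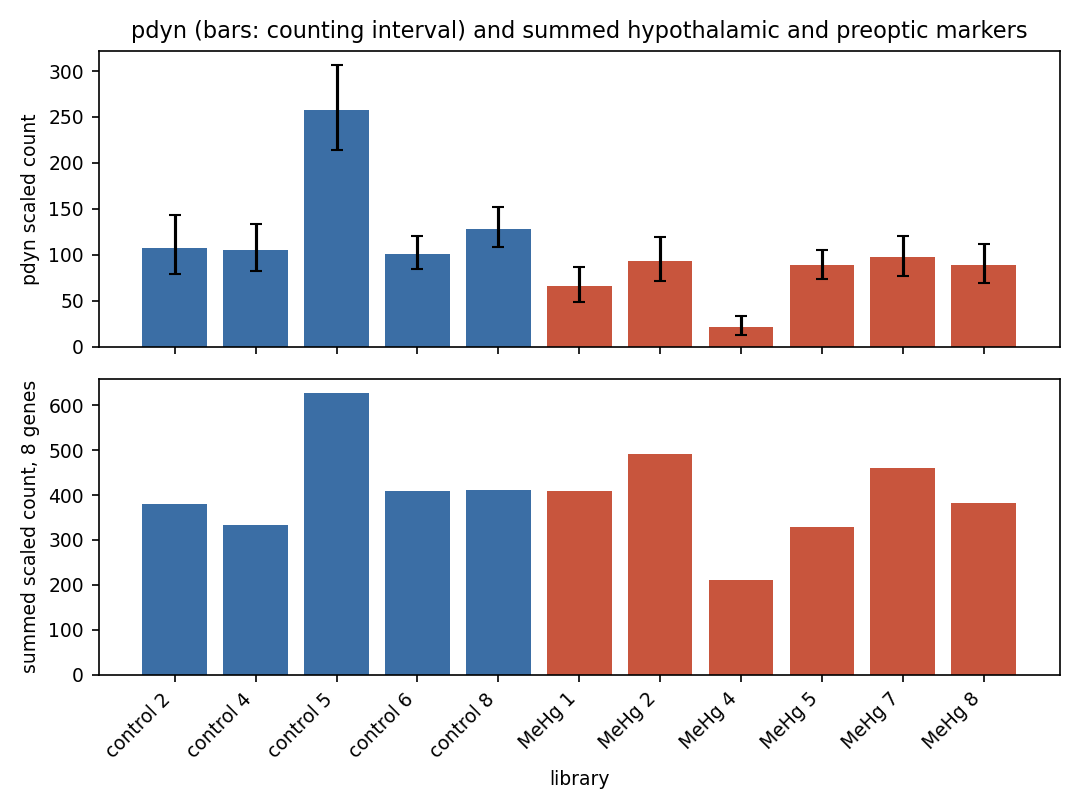
Upper bars give the pdyn scaled count of each library with its exact Poisson 95% interval, and lower bars the summed scaled count of 8 hypothalamic and preoptic marker genes, control libraries in blue and MeHg libraries in red. Control replicate 5 is the highest in both panels (257 and 627) and MeHg replicate 4 the lowest in both (21.5 and 211).

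The proenkephalin genes, whose products are cut into enkephalins, overlapped between the lineages. For penka (ENSDARG00000004869) the control libraries held scaled counts of 414, 264, 688, 336 and 375, and the MeHg libraries lay between 269 and 546 with a median of 453. Except for control replicate 5, no control library was above the MeHg median. The log2 fold change was 0.11 ± 0.24 (SE, 95% interval -0.42 to 0.64, limma adjusted p = 0.948). It was 0.31 without control replicate 5 and -0.034 without control replicate 4, and 0.48 ± 0.18 (limma adjusted p = 0.614) without control replicate 5 and MeHg replicates 4 and 8. For penkb (ENSDARG00000036045) control libraries held 199, 312, 366, 305 and 317, and MeHg libraries ranged from 230 to 331 around a median of 241. Control replicate 2 was the lowest of all 11 and MeHg replicate 1 the second highest. The log2 fold change of penkb was -0.18 ± 0.16 (SE, 95% interval -0.54 to 0.18, limma adjusted p = 0.897). Without control replicate 2 it was -0.32 ± 0.14 and without control replicate 5 -0.10 ± 0.16. Of the 8 genes it varied least within lineages, with an SD of 0.28 in log2 units.

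The tachykinin gene tac1, which encodes substance P, spread widely within the control lineage. Its scaled count (ENSDARG00000014490) was 302, 337, 725, 202 and 523 in control libraries, so control replicates 6 and 5 held the lowest and the highest value of all 11. MeHg libraries lay inside that range, from 240.3 to 480.05 with a median of 409. The log2 fold change was -0.03 ± 0.30 (SE, 95% interval -0.69 to 0.62, limma adjusted p = 0.989), and it turned positive, to 0.20 ± 0.26, without control replicate 5.

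For ccka, the precursor of cholecystokinin, which signals satiety and also acts as a cortical and limbic transmitter in mammals, the control libraries were again the more spread. Scaled counts (ENSDARG00000070810) were 226, 137, 485, 166 and 258 in the control lineage and 136 to 218 in the MeHg lineage, with a median of 167. Only MeHg replicate 4, at 136, was below the lowest control library, and only control replicates 2, 5 and 8 were above the highest MeHg library. The log2 fold change of ccka was -0.42 ± 0.28 (SE, 95% interval -1.02 to 0.18, limma adjusted p = 0.845). Without control replicate 5 it was -0.15 ± 0.20 (SE, limma adjusted p = 0.835), and -0.031 ± 0.21 when MeHg replicates 4 and 8 were left out as well.

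The PACAP genes, whose peptide stimulates cyclic AMP through the PAC1 receptor, rest on very different depths. The abundant adcyap1b (ENSDARG00000027740) was counted with 1296 to 5051 fragments per library. Its scaled count was 2962, 3300.0, 2964, 3438 and 4557 in the control lineage and 2214 to 4433 in the MeHg lineage, with a median of 3329. MeHg replicates 8 and 4 were the lowest of all 11, and control replicate 8 the highest. The log2 fold change of adcyap1b was -0.11 ± 0.18 (SE, 95% interval -0.51 to 0.28, limma adjusted p = 0.937). With 1 library left out it ran from -0.21 (without MeHg replicate 2) to -0.0080 (without control replicate 8). Its duplicate adcyap1a (ENSDARG00000004015) had 25 to 158 fragments and scaled counts of 123, 38.8, 113, 121 and 67.5 in control libraries. MeHg libraries ranged from 45.8 to 121 with a median of 72.7, inside the control range. The log2 fold change was -0.25 ± 0.33 (SE, 95% interval -0.97 to 0.47, limma adjusted p = 0.924). With 1 library left out it ran from -0.53 (without control replicate 4) to -0.12 (without control replicate 2).

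The vip gene, whose peptide is related to PACAP and couples clock neurons in the mammalian hypothalamus, had the second largest spread of the 8 genes. Its scaled count (ENSDARG00000078247) was 89.1, 97.9, 437, 235 and 197 in control libraries, and in MeHg libraries 125 to 281 around a median of 223. Means were nearly equal, at 211 ± 141 (SD, n = 5) and 212 ± 54.8 (SD, n = 6), and the log2 fold change was 0.21 ± 0.37 (SE, 95% interval -0.59 to 1.01, limma adjusted p = 0.941). It was 0.53 without control replicate 5 and -0.039 without control replicate 2. An SD within lineages of 0.70 log2 units or more was found in 19.8% of all tested genes. The bombesin-family gene grp (ENSDARG00000043074) fell below the low-value filter and was not tested. It had 0 to 6 fragments per library, 19 in all control libraries and 18 in all MeHg libraries, with scaled counts of 0 to 9.32 and 1.23 to 5.67. It was listed at 0 in control replicate 5, where 3 fragments would be worth 6.27, so no difference was detectable at this depth.

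**Figure D3:**
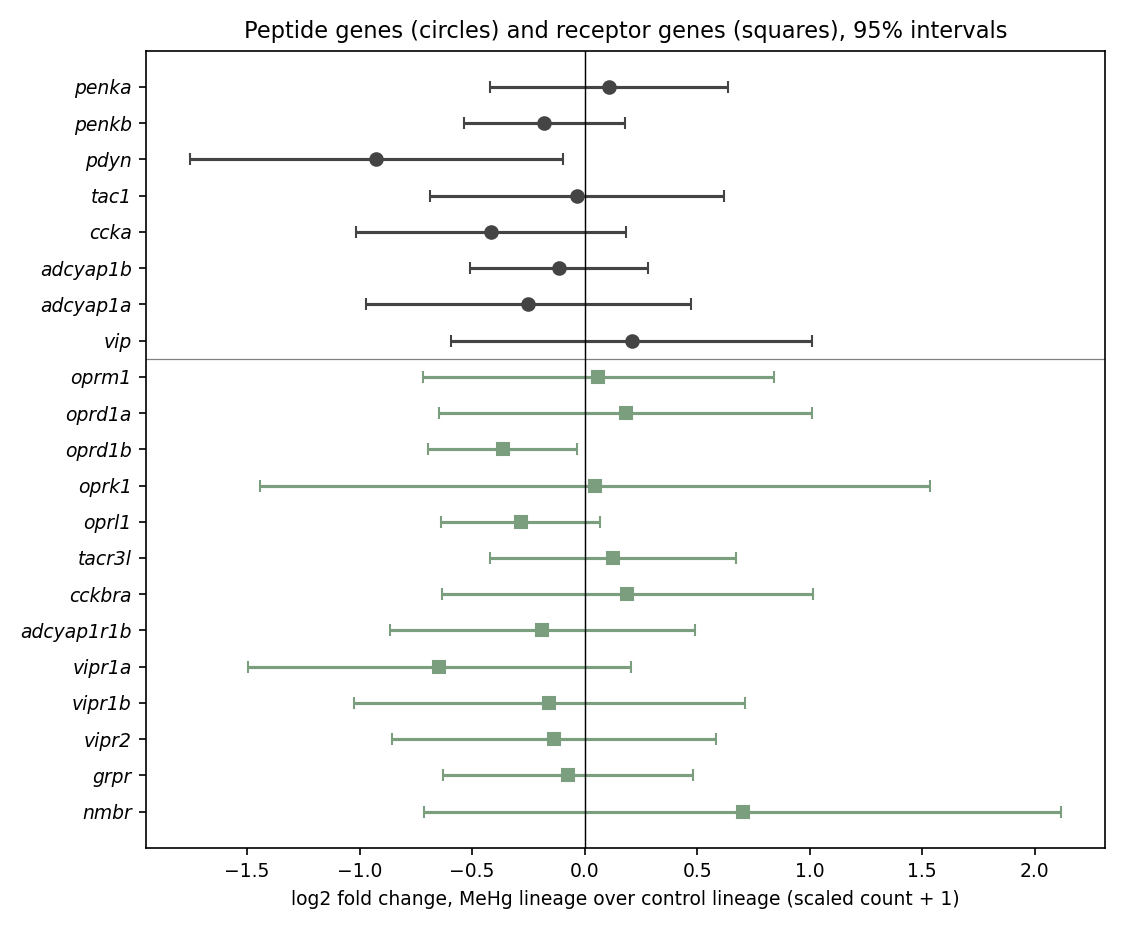
Log2 fold change of the MeHg lineage over the control lineage (x axis, scaled count + 1) for 8 peptide genes (circles) and 13 receptor genes (squares), with 95% intervals from limma. The interval of pdyn runs from -1.75 to -0.10 and that of adcyap1b from -0.51 to 0.28, and no gene shown passed an adjusted p of 0.05.

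Intervals for single genes set what these libraries leave possible. For penkb and adcyap1b the 95% intervals of the ratio of MeHg to control were 0.69 to 1.13 and 0.70 to 1.22. For vip the interval ran from 0.66 to 2.01 and for pdyn from 0.30 to 0.94. The intervals of adcyap1a, 0.51 to 1.39, and tac1, 0.62 to 1.54, were also wide. None of these intervals is adjusted for the number of genes tested, and pdyn did not pass over all genes (limma adjusted p = 0.696). The unadjusted limma p of pdyn was 0.084 without control replicate 5 and 0.0502 without control replicate 8. For vip, adcyap1a and tac1, larger differences in either direction therefore remain within the error than for penkb and adcyap1b.

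Control replicate 5 was the highest of the 11 libraries in 6 of the 8 tested peptide genes, namely penka, penkb, pdyn, tac1, ccka and vip, where it was the highest in 25.1% of all tested genes. Against the median library it stood 2.71 times higher for ccka, 2.63 times for pdyn, 2.03 times for vip, 1.94 times for tac1 and 1.66 times for penka. For penkb the factor was 1.22, and adcyap1b was the exception at 0.90. The count of 6 was the same in FPKM (23.7% of all tested genes) and with median-of-ratio scaling (24.3%). It was 5 with scaling by library totals (13.3%) and 0 with no scaling (0.232%), which leaves the low depth of that library in its values. MeHg replicate 4 lay below the median library in all 8 genes, where it did so in 57.6% of all tested genes. Its deviations ran from -0.28 (vip) to -2.12 (pdyn) log2 units, and its median over all genes of a length class from -0.05 to -0.09.

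**Figure D4:**
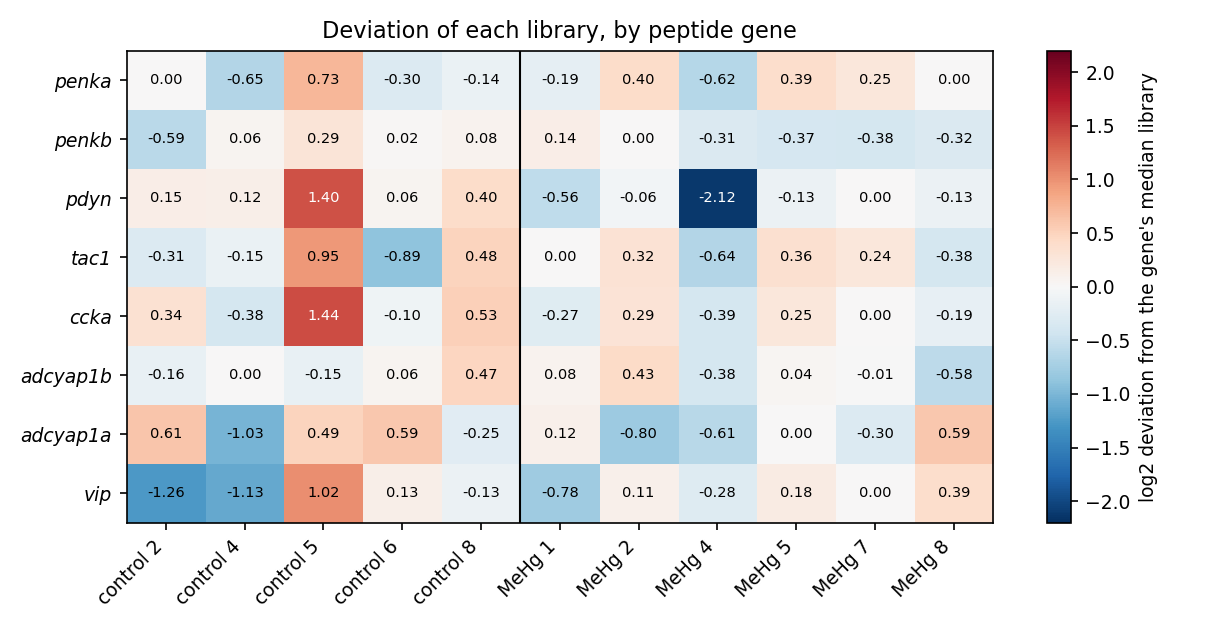
Colour and printed value give the log2 deviation of each library (columns) from the median library of each of the 8 tested peptide genes (rows), red above and blue below the median, with a line between control and MeHg libraries. The column of control replicate 5 holds the largest positive value of pdyn (1.40) and ccka (1.44), and MeHg replicate 4 is negative in every row.

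Control replicate 5 also differed by transcript length. The ratio of scaled count to FPKM of a gene is proportional to the transcript length used by the authors, and tested genes were split by its median over libraries into 5 length classes of equal size. In control replicate 5 the median deviation fell from 0.29 log2 units in the class of shortest transcripts to -0.25 in the class of longest, while in each other library it stayed between -0.10 and 0.06 in every class. All 8 peptide genes lay in the first 2 classes and pdyn, tac1, ccka and vip in the first. In the first 2 classes together, control replicate 5 was the highest library in 38.2% of genes. With the length trend removed in each library, control replicate 5 was the highest in 5 of the 8. The share over all tested genes was not computed after that step, so this count has no background. The deviation of control replicate 5 was then 1.177 for ccka, 1.08 for pdyn, 0.80 for vip, 0.61 for tac1 and 0.59 for penka, but 0.11 for penkb. This correction was chosen after seeing the data. The same library also had the highest sums of hypothalamic and preoptic markers (627), of hindbrain markers (600, against 207 to 552 elsewhere) and of glial markers (100250, against 36401 to 77797). Its telencephalon sum was low, at 993, against 746 in MeHg replicate 8 and 1395 to 2996 elsewhere. In that list eomesa (79.4) was second lowest there, but dlx6a (79.4) was second highest. In the hindbrain list mafba was higher in MeHg replicates 4, 5 and 8 (392, 402 and 330). In control replicate 5 mafba was at 309, while hoxb3a, at 132, was at its highest. In the glial list gfap, fabp7a, s100b, mbpa (61221) and olig2 were highest in that library, and mpz, plp1b and mpeg1.1 were not. The blood marker hbaa2 stood at 1212 there and at 21.3 to 181 elsewhere. Its sum of 4 glutamate transporter genes was the lowest (1417, against 1765 to 2798), but its members went opposite ways. In that library slc17a6a (83.6, against 451 to 1163) and slc17a7a (121, against 346 to 630.3) were the lowest, while slc17a6b (1045) was the second highest. Their part in the peptide values was not tested.

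**Figure D5:**
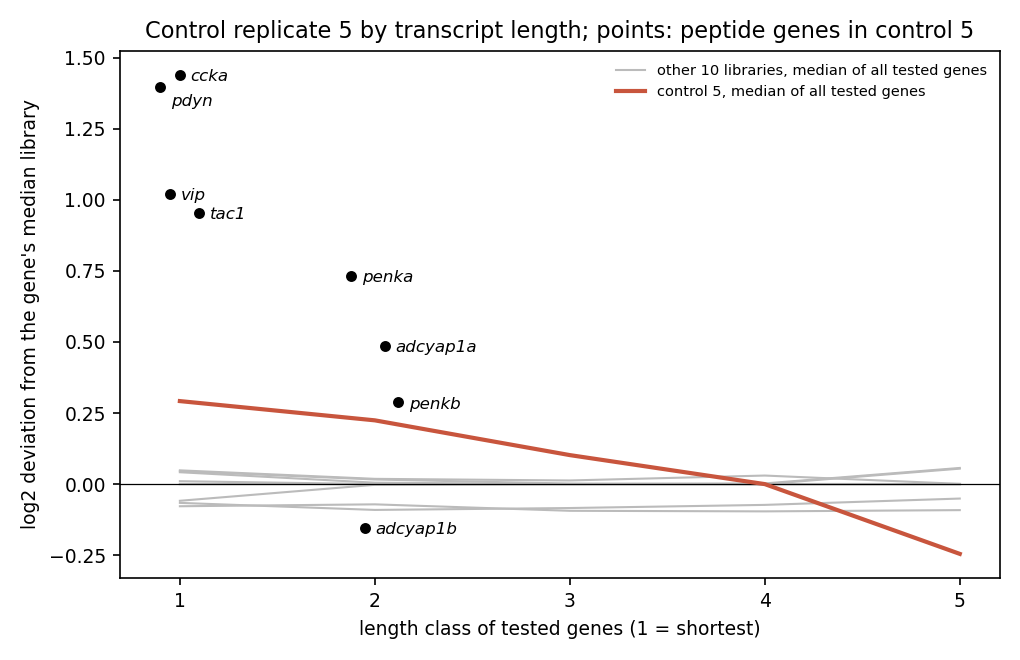
Median log2 deviation from the median library (y axis) of all tested genes in 5 length classes (x axis, 1 is shortest), with control replicate 5 in red and the other 10 libraries in grey, and the 8 peptide genes in control replicate 5 as points. The red line falls from 0.29 to -0.25, and 7 of the 8 points lie above it while adcyap1b lies below.

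Receptors, related peptides and processing enzymes of these systems were read from lists, of which 38 rows were found and 30 tested. None of the 30 passed over all genes, 1 had an unadjusted p under 0.05, and 17 had negative and 13 positive values with a median of -0.10. Of all tested genes 0.269% passed, 6.61% had an unadjusted limma p under 0.05 and 45.7% had negative values, with a median of 0.03. Of 5 opioid receptor genes 0 passed. The delta receptor gene oprd1b was the 1 at an unadjusted p under 0.05, at 85.8 ± 7.25 (SD, n = 5) in control and 66.8 ± 10.2 (SD, n = 6) in MeHg libraries. Its log2 fold change was -0.36 ± 0.15, with a limma adjusted p of 0.705. Like pdyn, all its MeHg libraries, at 55.3 to 79.1, were below all control libraries, at 79.9 to 96.1. A separation in this direction was found in 0.739% of all tested genes. The margin for oprd1b was very small: the nearest values were 79.12 and 79.85, where 1 fragment was worth 0.67 to 2.29 scaled counts, depending on the library. The nociceptin receptor gene oprl1 stood at 203 ± 36.5 and 166 ± 29.6 (limma adjusted p = 0.831). The kappa receptor gene oprk1, whose ligand comes from pdyn, had 33.3 ± 18.3 and 28.0 ± 13.7 (limma adjusted p = 0.995).

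No other receptor gene passed either. Of 4 tachykinin receptor rows 1 was tested, tacr3l, at 35.4 ± 9.84 and 38.5 ± 9.64 (limma adjusted p = 0.946). The substance P receptor gene tacr1a was under the filter, at 11.4 ± 6.39 and 9.51 ± 7.65. Of the cholecystokinin receptors cckbra was tested, at 21.9 ± 12.3 and 22.4 ± 5.66 (limma adjusted p = 0.946), and cckar, at 1.63 ± 1.646 and 1.28 ± 2.22, was not. The PAC1 receptor gene adcyap1r1b had 157 ± 62.5 and 130 ± 33.8 (limma adjusted p = 0.938), and the VIP receptor gene vipr1a 14.0 ± 6.16 and 8.18 ± 2.77 (limma adjusted p = 0.840). All 4 PACAP and VIP receptor genes had negative values, down to -0.65 ± 0.39 for vipr1a, where 45.7% of all tested genes had negative values. The bombesin receptor genes grpr and nmbr were at -0.07 ± 0.26 and 0.70 ± 0.65 (SE, limma adjusted p = 0.964 and 0.897). Means of nmbr were 9.57 ± 6.71 and 11.3 ± 3.30 (SD), and control replicate 5 held 0 against 5.54 to 17.4 elsewhere.

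Among the 13 tested receptor genes control replicate 5 was the lowest library in 7 and the highest in 2, oprd1b (96.1) and oprl1 (238). It was the lowest in 28.2% and the highest in 25.1% of all tested genes. Of the 7 receptor genes in the first 2 length classes it was the lowest in 6, where it was the lowest in 24.5% of all tested genes of those classes. The difference from the peptide genes was not tested. Scaled counts in that library were 12.5 for the mu receptor gene oprm1, 10.5 for the delta receptor gene oprd1a, 2.09 for oprk1 and 58.5 for adcyap1r1b. The other 10 libraries held 32.9 to 63.0, 30.1 to 61.7, 7.93 to 49.9 and 86.0 to 217. Among 6 tested related peptide genes control replicate 5 was the lowest in 0 and the highest in 3, tac3a, nmba and nmbb. All 6 lay in the first 2 length classes, where that library was the highest in 38.2% of genes. Among 11 tested processing genes it was the lowest in 2 and the highest in 2. The convertase gene pcsk1, whose product cuts many of these precursors, was at 79.4 in that library and at 453 to 1077 in the others, and cpe at 5229 and 5674 to 7460. The granule protein gene chgb was at 599.9 there and at 205 to 532 in the others. The tested row of scg5 (ENSDARG00000032126), for a convertase chaperone, was at 341 there and at 147 to 303 in the others. An untested row of scg5 (ENSDARG00000077045) was at 2.09 there and at 0 to 139 in the others.

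None of the related peptide and processing genes passed. The prepronociceptin gene pnoca had 112 ± 11.3 and 94.0 ± 23.6 (limma adjusted p = 0.841), and the neurokinin B gene tac3a 111 ± 44.1 and 85.8 ± 18.3 (limma adjusted p = 0.870). Pro-opiomelanocortin, the precursor of beta-endorphin, is also made in the pituitary: its gene pomca was at 2029 in MeHg replicate 4, the library rich in pituitary hormone genes, and at 32.2 to 128 elsewhere. Among 11 tested processing genes the 2 with the smallest p were scg3, for a granule protein, at 1627 ± 421 and 2341 ± 825 (limma adjusted p = 0.777) and highest in MeHg replicate 4 (3858), and cadpsa, for a priming factor of dense-core vesicles, at 233 ± 66.8 and 288 ± 24.8 (limma adjusted p = 0.781). The convertase gene pcsk2 (923 ± 157 and 826 ± 104, limma adjusted p = 0.889) and the carboxypeptidase gene cpe (6555 ± 904 and 6788 ± 649, limma adjusted p = 0.948) were among the rest.

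Some peptide genes varied together across libraries. After the mean of each lineage was subtracted, penka and ccka had a Pearson correlation of 0.92 over 11 libraries (Spearman 0.92), and 0.86 without control replicate 5. For penka and pdyn the values were 0.86 (Spearman 0.88) and 0.81. The enkephalin duplicates did not share this pattern, at 0.10 (Spearman -0.01), nor did the PACAP duplicates, at -0.45 (Spearman -0.45). Of 28 pairs 24 had positive coefficients, 22 without control replicate 5. The share of positive pairs among all tested genes, or among genes of the same length classes, was not computed. This count therefore has no background. These are descriptions over libraries that also share differences of dissection markers and depth.

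Genes with the most similar pattern were looked for among 11604 tested genes with a symbol, again after subtracting lineage means. Among the closest to pdyn were gsx1 (Pearson 0.93, Spearman 0.87) and otpb (0.93 and 0.84) over 11 libraries. Without control replicate 5 their Pearson coefficients were both 0.91. The closest to penka were noc3l (0.95), pex7 (0.94) and pabpc1b (0.93), to penkb uxt (0.96), rgs12b (0.91) and kctd7 (0.90), and to tac1 lin52 (0.96), prdx1 (0.94) and scnm1 (0.92). For ccka they were rwdd2b (0.97), gps1 (0.96) and dctn5 (0.96), and for vip fggy (0.97), hnrpkl (0.94) and lias (0.93). For adcyap1b they were ccdc136b (0.96), map2k1 (0.92) and epo (0.92), and for adcyap1a kif1bp (0.93), lef1 (0.93) and zc3h13 (0.92). Each of the 8 genes had a closest gene at 0.93 or higher, the highest of 11604 coefficients over 11 libraries. How high the closest gene stands for other genes was not computed, so the named genes are a description only. Without control replicate 5 the coefficients of these named genes stayed at 0.86 or higher, but their ranks changed: noc3l, pex7 and pabpc1b were at places 10, 23 and 15 for penka, gps1 at 12 for ccka, map2k1 at 18 for adcyap1b, and gsx1 and otpb at 10 and 12 for pdyn.

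The measures differed most for pdyn and adcyap1b. For the other 7 genes the scaled count per FPKM was nearly the same in every library with a value above 0, with the highest value at most 1.06 times the lowest. For adcyap1b it varied by 1.31 times, from 6.46 in control replicate 6 to 8.45 in MeHg replicate 2, and for pdyn by 1.51 times, from 3.13 in control replicate 4 to 4.73 in MeHg replicate 4. A range above 1.2 times was found in 26.6% of all tested genes. Means of the ratio were 3.49 in control and 3.93 in MeHg libraries for pdyn, so its fold change was larger in FPKM, at -1.10 ± 0.42 (log2 of FPKM + 0.1, SE, limma adjusted p = 0.671). That of adcyap1b was -0.21 ± 0.19 in FPKM (SE, limma adjusted p = 0.911), against -0.11 in scaled counts. In FPKM the control libraries of pdyn ran from 28.9 to 67.9 and the MeHg libraries of pdyn from 4.56 to 28.8.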

How the data were processed

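Paired-end 100-base TruSeq libraries were made from total brain RNA, per the labels' protocols. Tools listed in the submitters' processing notes are Cuffnorm, TopHat, FastQC, cutadapt and CASAVA 1.8.2, with genome build Zv9. The sources used here give no settings, annotation or strand handling. One table deposited by the authors holds signal, called scaled counts here. The values themselves show fragment counts divided by 1 size factor per library: 98.2% to 98.9% of positive values up to 200 steps were whole multiples of a library's step within 0.01. A second deposited table holds FPKM values. Each table has 1 column with no name, not used here.

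Genes with at least 10 in at least 6 libraries were tested as log2(scaled count + 1) with limma 3.58.1 in R 4.3.3 (trend, robust; statmod 1.5.0), lineage as the only factor, Benjamini-Hochberg over 16364 genes, threshold 0.05. The procedure was tested on simulated counts, drawn independently for each gene and library. The simulation had none of the library-wide differences described above, so it does not cover them. Members and lists were chosen with earlier results of these data known. Named genes are the members, in each pathway list the 2 with the smallest p (others were added after their values were seen), and for likeness the 3 best-correlated genes of each member with a mean of at least 50, of which 1 is not reported here. Marker lists are given as summed levels. Symbols came from the tables, or from a reference table of Ensembl names where they gave none. Count models were planned and not run, because a small number of values below 1 step kept whole reads from being recovered for every gene. Python 3.11.15, pandas 2.3.3, numpy 2.4.6, scipy 1.17.1 and matplotlib 3.10.9 were used. Alternatives covered scaling, pseudocount, filter, FPKM, replicate block, transcript length and left-out libraries. Scaling by library totals or by median of ratios, the length trend and the removals of 3 libraries were not planned.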

Additional observations from a re-analysis of the deposited data

Results flagged for a closer look

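The prodynorphin gene pdyn in control replicate 5 lay far from the other control libraries. Its scaled count was 257 against 101 to 128 in the other 4, and the gap to the nearest library took 0.83 of the group's range, above the critical value of 0.71 for 5 samples. Chance flags about 1 in 20 groups, and 18 groups were checked.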

How the results depend on the processing

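No member and no pathway gene passed in any of 24 alternatives, with a smallest adjusted p of 0.510 for any member. Of 192 member fold changes 177 kept their sign, but not always their size. Signs reversed with no scaling for penkb (0.10), tac1 (0.25), adcyap1a (0.031) and adcyap1b (0.17), and with the length trend removed for tac1 (0.082). Without control 5, MeHg 4 and MeHg 8 together tac1 (0.45) and adcyap1b (0.040) reversed, penka moved to 0.48 and ccka to -0.031, and without control 4, MeHg 4 and MeHg 5 together vip (-0.012). With 1 library left out, penka ran from -0.034 to 0.31, tac1 from -0.26 to 0.20, vip from -0.039 to 0.53, penkb from -0.32 to -0.10, adcyap1a from -0.53 to -0.12, adcyap1b from -0.21 to -0.0080, ccka from -0.60 to -0.15 and pdyn from -1.03 to -0.60. Genes past the threshold over the whole table numbered 44, and 24 with no scaling, 20 with the replicate block, 22 without control 4, MeHg 4 and MeHg 5, and 36 to 72 with 1 library left out. The cause of these shifts was not tested. Correlations of deviations between libraries of the same replicate number were 0.10, 0.46, 0.19 and 0.06 for numbers 2, 4, 5 and 8. The best partner of a control library had its own number only for number 4. These values cannot settle whether the numbers mark pairs, since only these correlations were computed. The replicate block changed no member's call (pdyn -1.13, limma adjusted p = 0.798). Only numbers 2, 4, 5 and 8 had a library in both lineages, and the contrast of that fit rests on those alone. An unchanged call there therefore says little. The mean over libraries of the adcyap1b share of summed level was 56.1% in FPKM and 66.0% in scaled counts. Planned count models and TMM factors were not run. Depth limits grp (0 to 6 fragments), adcyap1a and pdyn most.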
